A study of Rattus norvegicus with 54 samples.

Results

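The peroxisomal genes described here comprise 37 genes, listed by name: 13 peroxins, which build the organelle and import its proteins, 15 enzymes of the matrix, 6 proteins of the membrane and 3 enzymes of ether lipid synthesis. Of these, 35 had a probe set that carries a single gene symbol, among 14506 genes with such a probe set on the array. *Acaa1a* and *Decr2* lie on probe sets that also carry another symbol (*Acaa1b* and *Nme4*) and have no value here. GeneChip Rat Gene ST arrays measured total RNA of whole liver and of hind limb skeletal muscle of Wistar rats, in order to follow both tissues through the transition from foetal to extra-uterine life. The 24 liver arrays cover foetal days F16, F20 and F22, postnatal days P1 and P4, and adults at P90, with n = 4 each. The 30 muscle arrays cover F16, F18, F20, F22, P1 and P4, with n = 5 each. No group carried a treatment or a genetic change. Foetuses were delivered by Caesarean section from killed mothers, neonates and adults had been born, and the animals were kept on standard chow. The samples of a group are labelled as biological replicates. The sources used here give neither their sex nor whether animals of a group shared a litter, so that the p-values measure the spread between these samples only.

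Peroxisomes shorten very-long-chain and branched fatty acids and bile acid precursors, oxidise substrates such as urate, glycolate and D-amino acids, break down the hydrogen peroxide formed in these reactions, and carry out the first steps of plasmalogen (ether lipid) synthesis. They are abundant in hepatocytes. Peroxins insert membrane proteins (*Pex3*, *Pex16*, *Pex19*), carry matrix proteins from the cytosol (*Pex5*, *Pex7*), dock the loaded carrier at the membrane (*Pex13*, *Pex14*), tag it with ubiquitin (*Pex2*, *Pex10*), pull it out again (*Pex6* with its anchor *Pex26*) and elongate the organelle before division (*Pex11a*, *Pex11g*). In rodents, many genes of peroxisomal fatty acid oxidation are known targets of the nuclear receptor PPARα, which fatty acids activate.

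All values are log2 signals after robust multi-array average (RMA), so that a difference of 1 is a 2-fold change. A change is called where limma's moderated test gives an adjusted p (Benjamini-Hochberg, over all probe sets with 1 symbol) of 0.05 or less. The liver arrays had medians of 7.06 to 7.16 and the muscle arrays of 7.98 to 8.07, ranges that do not meet, so that changes are set side by side between tissues and levels are not. Probe sets of different genes bind their transcripts unequally, and levels are not compared between genes either. Hepatocyte and muscle fibre markers were read in the tissue of their own label, which does not test the labels. The mean of 12 hepatocyte markers was 10.90 in liver at F16 and 12.88 at P90. That of 14 muscle fibre markers was 9.11 in muscle at F16 and 11.49 at P4. The muscle arrays also read keratinocyte markers, with F22 means of 13.65 (*Krt1*), 13.75 (*Krt10*), 12.33 (*Krt14*) and 10.22 (*Krt15*). The liver array P1 replicate 1 is the least like its group, and 4 muscle arrays (F16 replicate 5, F20 replicates 4 and 5, and F22 replicate 5) lie apart from theirs. Hepatocyte markers varied between single muscle arrays, with array means from 6.74 to 8.56. In bulk tissue, fewer cells of a type and less RNA per cell cannot be told apart.

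In the liver, nearly the whole module rose from F16 to P4, the matrix enzymes much further than the peroxins, while the 3 enzymes of ether lipid synthesis fell. In skeletal muscle the same genes hardly moved as a group. In liver, 35 of 35 members passed the moderated F-test over 6 time points, and so did 84.0% of all genes. Of the 32 members above the median signal all passed, as did 97.3% of all such genes. In muscle, 29 of 35 passed (75.0% of all genes), and of the members above the median signal 17 of 18 (95.4%). From F16 to P4, 31 members rose in the liver and 4 fell, where 23.7% and 33.8% of all genes did. The median change of the 35 was 0.96 on the log2 scale, and that of all genes -0.02. The same span in muscle held 12 rises and 11 falls, where 27.4% and 34.3% of all genes rose and fell, and the median change of the members was -0.01.

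**Figure D1:**
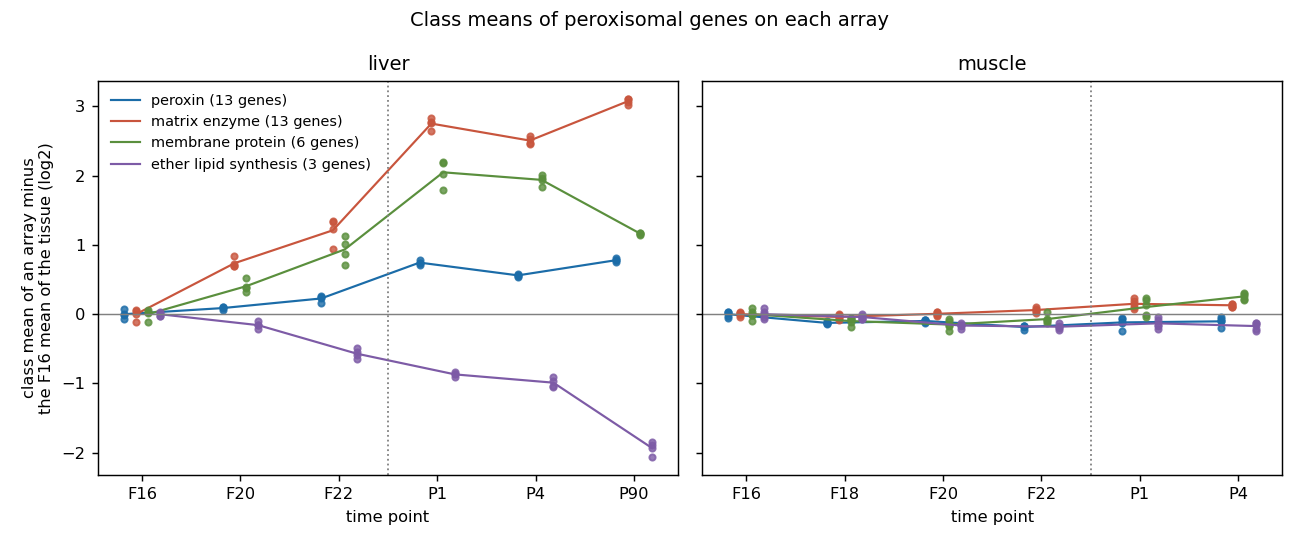
Mean log2 value of each class of peroxisomal genes on each array, minus the F16 mean of that class in the tissue (vertical axis), at the time points of liver (left, 4 arrays each) and muscle (right, 5 arrays each). Points are arrays, lines join the group means, and the dotted line marks birth. In liver the matrix enzymes stand 2.75 above F16 at P1 and the ether lipid enzymes 1.93 below it at P90, while no class mean in muscle moves by more than 0.26.

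The classes parted early. In liver the mean of the 13 measured matrix enzymes stood above its F16 mean by 0.74 ± 0.07 (SD, n = 4) at F20, by 1.21 ± 0.19 at F22, by 2.75 ± 0.08 at P1 and by 3.08 ± 0.04 at P90. The 13 peroxins gained 0.09 ± 0.02 by F20, 0.23 ± 0.04 by F22, 0.75 ± 0.03 by P1 and 0.78 ± 0.03 by P90. Matrix minus peroxin lay between -0.02 and 0.08 on the F16 arrays, between 1.95 and 2.11 at P1 and between 2.30 and 2.35 at P90. The F22 arrays agreed least, with values from 0.80 (replicate 4) to 1.12. The medians over single genes show the same order, with a change from F16 to P4 of 2.44 for the matrix enzymes and 0.59 for the peroxins. In muscle, matrix minus peroxin lay between -1.04 and -0.94 at F16 and between -0.82 and -0.64 at P4. In both tissues only the change of this difference over time is read, since its level compares different probe sets. Since the members were chosen with results known, these class values are descriptions and carry no test.

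Birth was the interval in which most members moved. Between F16 and F20 in liver, 17 of 35 members rose and 2 fell (9.42% and 13.3% of all genes), and between F20 and F22, 18 rose and 5 fell (15.8% and 21.5%). Across birth, from F22 to P1, 28 rose and 2 fell, where 15.1% and 20.7% of all genes did. From P1 to P4, 1 rose and 8 fell (4.87% and 5.97%). Between P4 and the adult, 16 rose and 7 fell (29.5% and 26.0%). The time of the highest mean was P90 for 18 members, P1 for 11, P4 for 2, F16 for 3 and F22 for 1. Markers of other cells moved over the same interval. All 8 measured erythroid markers (12 listed) fell from F22 to P1, with a median change of -0.79, and their summed linear signal dropped from between 31440 and 38190 to between 20740 and 23620.  Of 12 hepatocyte markers, 3 rose over the same interval, by a median over the list of 0.03. All 13 measured matrix enzymes rose, by a median of 1.19. At F22 the markers that rose, *Tat*, *Asgr1* and *Hnf4a*, stood at 9.13, 9.57 and 11.13, and *Apoa2*, without a call, at 10.94. The other markers stood between 12.79 (*Cps1*) and 13.83 (*Alb*), where the highest value on any liver array was 14.11. How far such bright probe sets can still rise was not tested. The mean of the hepatocyte markers moved more than their median. It stood 1.36 ± 0.10 (SD) above its F16 mean at F22 and 1.74 ± 0.10 at P1. The part of the erythroid fall and of the hepatocyte markers in the changes of the members was not tested.

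**Figure D2:**
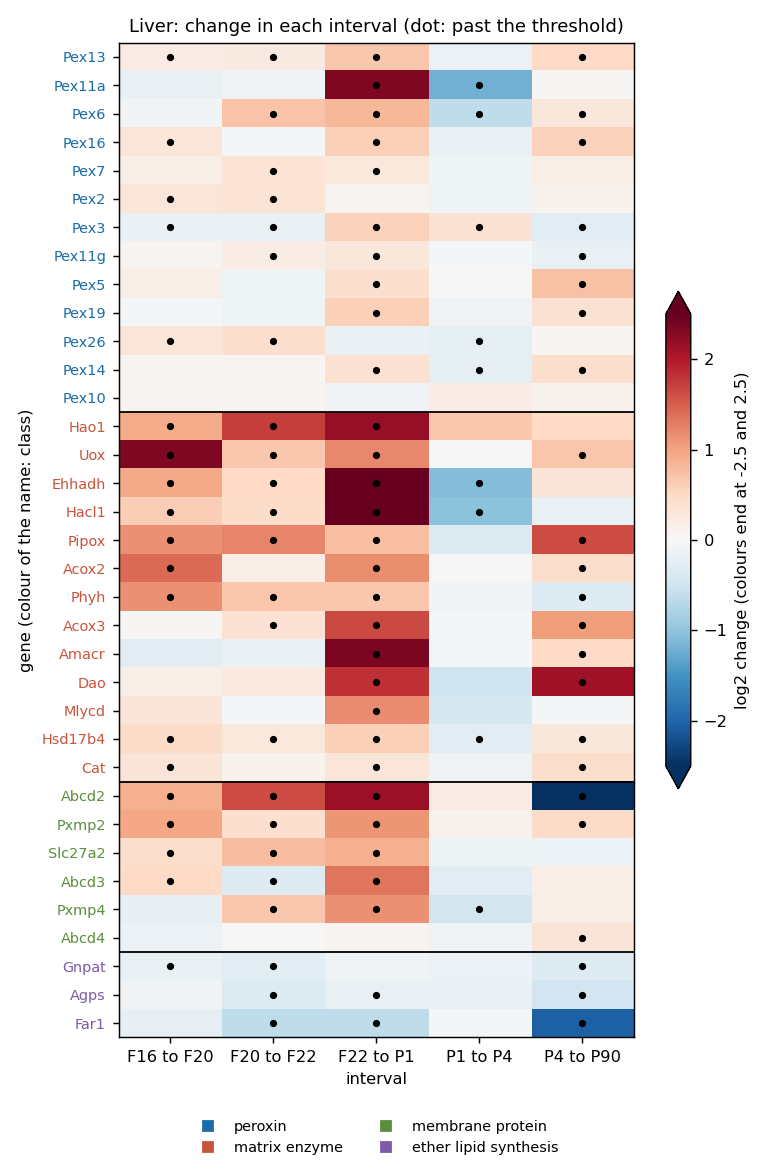
Log2 change of each of the 35 members in each liver interval (columns), by class (name colours and black lines); red is higher at the later time, blue lower, and a dot marks an adjusted p of at most 0.05. The column from F22 to P1 is the reddest, with 28 members that rose, and the 3 ether lipid genes at the bottom are blue or near white in every column.

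Among the matrix enzymes of the liver the oxidases *Hao1* and *Uox* gained most. *Hao1*, glycolate oxidase, had the widest range of any member, and *Uox*, urate oxidase, which in rat liver forms the crystalline core of the peroxisome, the third widest. On the 4 F16 arrays *Hao1* read 6.26, 6.19, 5.94 and 5.67, at F20 6.58, 7.15, 7.14 and 6.92, and at F22 9.30, 9.22, 8.82 and 7.38. After birth it read 10.32, 11.09, 10.91 and 11.16 at P1, 11.51, 11.77, 11.44 and 11.41 at P4 and 11.99, 12.09, 11.99 and 12.08 at P90. No array of a later time point overlapped those of F16, and the F22 group was the most uneven, with replicate 4 far below the other 3. The change from F16 to P4 was 5.52 ± 0.28 (SE, adjusted p = 4.51e-14), a called rise in each foetal interval and across birth, with no call from P1 onwards. The call from F16 to F20 was lost without either of 2 single arrays.

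*Uox* rose most in the first interval. Its F16 arrays read 7.25, 7.40, 7.23 and 6.97 and its F20 arrays 9.63, 9.85, 9.08 and 9.63, a rise of 2.33 ± 0.25 (SE, adjusted p = 2.65e-07) in the first interval. The later arrays read 10.10, 10.13, 11.14 and 9.48 at F22, 11.97, 10.88, 11.69 and 11.09 at P1, 11.38, 11.40, 11.53 and 11.28 at P4 and 12.12, 12.11, 12.06 and 12.06 at P90. The F22 and P1 groups overlap, and the spread within them is wider than at P4 or P90. The change across birth was 1.19 ± 0.25 (SE, adjusted p = 0.000433).

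*Pipox*, which oxidises pipecolate and sarcosine, and *Dao*, D-amino-acid oxidase, reached their highest values in the adult. *Pipox* read 6.75, 6.50, 6.09 and 6.20 at F16, 7.46, 7.79, 7.50 and 7.32 at F20 and 8.95, 8.73, 8.84 and 8.46 at F22, then 9.90, 9.19, 9.27 and 9.63 at P1, 9.66, 9.68, 8.68 and 8.57 at P4 and 10.74, 10.73, 10.80 and 10.83 at P90. Its P4 group was split, with replicates 1 and 2 well above replicates 3 and 4, and every adult array lay above all others. *Dao* stayed low before birth, with 5.91, 5.91, 5.87 and 5.83 at F16, 6.16, 6.10, 5.99 and 5.95 at F20 and 6.25, 6.51, 6.14 and 6.27 at F22. It read 8.83, 7.61, 7.73 and 8.28 at P1, 7.76, 7.98, 6.91 and 7.82 at P4 and 9.72, 9.83, 9.64 and 9.76 at P90. Its first called change was thus across birth, 1.82 ± 0.20 (SE, adjusted p = 1.84e-07), and the adult stood a further 2.12 ± 0.20 (SE, adjusted p = 5.06e-09) above P4. *Cat*, catalase, which removes the hydrogen peroxide that these oxidases make, rose by 0.63 ± 0.04 (SE) from F16 to P4, between groups that did not overlap, and by another 0.45 ± 0.04 to P90. The mean signal of its probe set in liver was at percentile 99.5, a measure of brightness and not of RNA level against other genes.

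**Figure D3:**
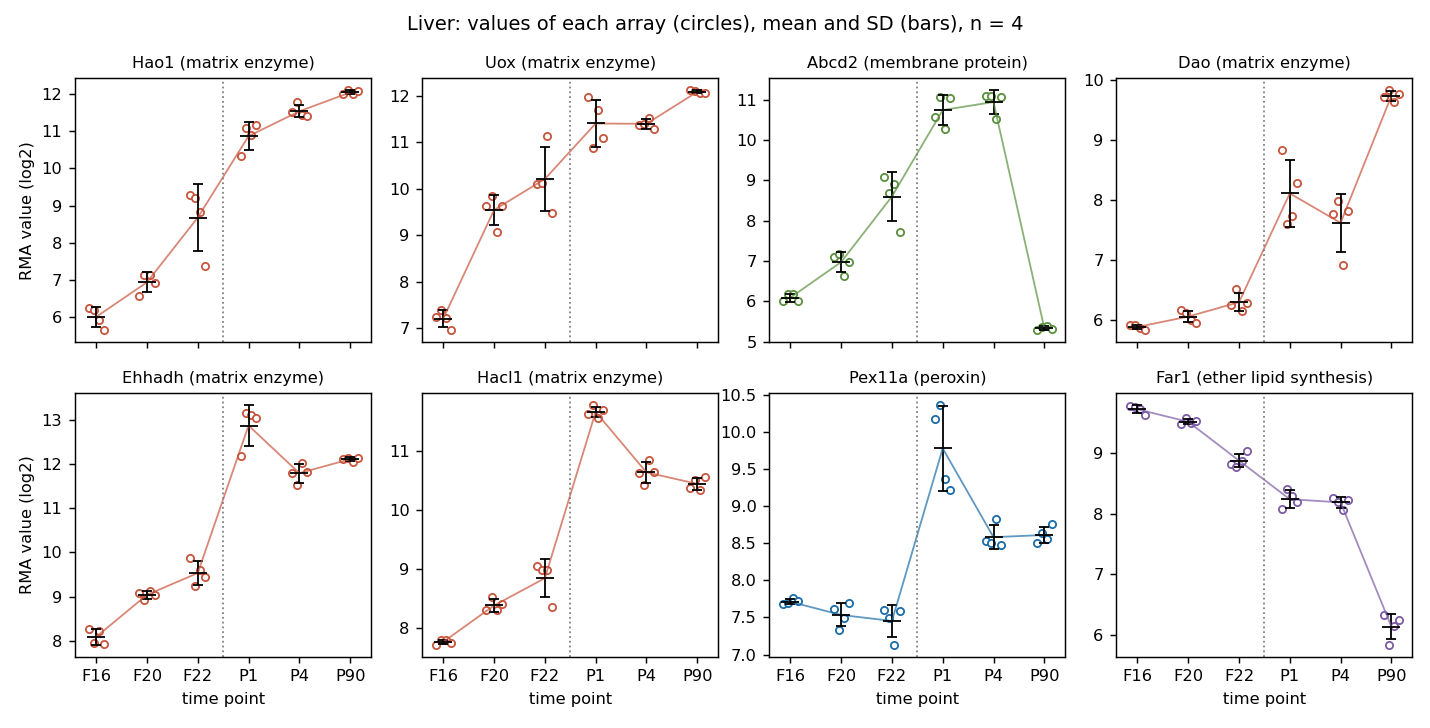
RMA log2 value (vertical axis, a separate scale in each panel) of 8 members on every liver array at each time point; circles are arrays, black bars the mean and SD (n = 4), coloured lines join the means, and the dotted line marks birth. *Hao1* and *Uox* climb before birth, *Dao* only after it, *Ehhadh*, *Hacl1* and *Pex11a* peak at P1, *Abcd2* returns at P90 to below its foetal level, and *Far1* is lowest at P90.

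A second pattern was a peak on the first day of life. *Ehhadh*, the L-bifunctional enzyme of peroxisomal β-oxidation, read 8.26, 7.94, 8.22 and 7.92 at F16, 9.08, 8.93, 9.12 and 9.03 at F20 and 9.87, 9.23, 9.60 and 9.43 at F22. It jumped to 12.19, 13.16, 13.10 and 13.05 at P1, then read 11.80, 11.52, 12.03 and 11.83 at P4 and 12.13, 12.14, 12.05 and 12.13 at P90. The 4 P1 arrays lie above every other liver array, although replicate 1 is close to the adult values. The step across birth was 3.34 ± 0.16 (SE, adjusted p = 5.56e-13), the highest of any member, and the fall to P4 -1.08 ± 0.16 (SE, adjusted p = 0.000119). *Hacl1*, a lyase of the α-oxidation of phytanic acid, had the next highest step at birth. It read 7.72, 7.79, 7.81 and 7.75 at F16, 8.30, 8.53, 8.30 and 8.40 at F20 and 9.06, 8.99, 8.98 and 8.36 at F22, then 11.63, 11.77, 11.56 and 11.69 at P1, 10.62, 10.43, 10.85 and 10.65 at P4 and 10.37, 10.51, 10.35 and 10.56 at P90. No other group reached its P1 values. It changed by 2.82 ± 0.11 (SE, adjusted p = 3.35e-14) across birth and by -1.02 ± 0.11 (SE, adjusted p = 2.8e-06) from P1 to P4. Besides *Ehhadh* and *Hacl1*, the members that fell from P1 to P4 were *Pex11a*, *Pex6*, *Pxmp4*, *Pex14*, *Hsd17b4* and *Pex26*. The call of *Pex26* was lost without any 1 of 5 single arrays and with the replicate block (adjusted p = 0.0575), and that of *Hsd17b4* without any 1 of 4 arrays. Only *Pex3* rose. Without the liver array P1 replicate 1 the same 9 were called with 6 more that fell, 15 in all (15.1% of all genes were then called in either direction): *Abcd3*, *Mlycd*, *Acox3*, *Slc27a2*, *Agps* and *Abcd4*.

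The remaining matrix enzymes had no such peak, or a lesser one. *Acox2*, which oxidises bile acid intermediates, gained 2.74 ± 0.11 (SE) from F16 to P4, with steps of 1.42 to F20 and 1.16 across birth. *Phyh*, phytanoyl-CoA hydroxylase, gained 2.44 ± 0.05, with called rises in every interval up to P1 and a spread between arrays of at most 0.08 (SD). *Amacr*, the racemase that readies branched acyl groups for β-oxidation, was at 9.48 ± 0.10 (SD, n = 4) at F16 and 9.03 ± 0.19 at F22, with no call in either foetal interval, and rose by 2.36 ± 0.15 (SE, adjusted p = 4.56e-11) across birth. *Acox3*, an oxidase of branched acyl-CoA, rose by 1.65 across birth and by 1.05 from P4 to the adult. *Hsd17b4*, the D-bifunctional enzyme, rose by 1.05 from F16 to P4, in each interval up to P1. *Mlycd*, malonyl-CoA decarboxylase, rose by 1.09 over the same span, with its only called step, 1.19, across birth.

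Promoters were examined because so many members rose together. RefSeq windows of the GRCr8 assembly, 250 bases before to 50 bases after the annotated start, matched 33 of the 35 members by gene ID, and *Pex2* and *Pex6* had none. PPARα binds pairs of the half-site AGGTCA with 1 base between them. The full pair AGGTCANAGGTCA, read on both strands, occurs in 0 of 33 member windows and in 18 of 33469 windows (0.0538%). The single half-site AGGTCA, on either strand, occurs in 9 of 33 (27.3%), and in 16.2% of all windows. The 9 are *Uox*, *Slc27a2*, *Amacr*, *Abcd2*, *Dao*, *Hsd17b4*, *Cat*, *Pex11g* and *Agps*, the last of which fell in liver. Shown are windows of 3 members that rose, with the half-site in capitals (TGACCT is its reverse complement). The window of *Far1*, the member that fell most from F16 to P4, is shown too and holds none. It begins at base 177079080, inside the gene, whose listed start is base 177078973. The bases before that start were not examined, and the lack of a half-site says nothing of them. The windows were chosen after the values had been seen, and a match is a description of letters, not a binding site.
*Uox*, chr2:238146880-238147179, plus strand: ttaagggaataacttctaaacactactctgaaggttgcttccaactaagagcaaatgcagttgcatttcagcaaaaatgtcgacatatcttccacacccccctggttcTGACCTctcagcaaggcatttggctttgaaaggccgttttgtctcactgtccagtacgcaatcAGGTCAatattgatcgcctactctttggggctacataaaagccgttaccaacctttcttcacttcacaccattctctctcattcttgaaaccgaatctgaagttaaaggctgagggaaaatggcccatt
*Slc27a2*, chr3:134257851-134258150, plus strand: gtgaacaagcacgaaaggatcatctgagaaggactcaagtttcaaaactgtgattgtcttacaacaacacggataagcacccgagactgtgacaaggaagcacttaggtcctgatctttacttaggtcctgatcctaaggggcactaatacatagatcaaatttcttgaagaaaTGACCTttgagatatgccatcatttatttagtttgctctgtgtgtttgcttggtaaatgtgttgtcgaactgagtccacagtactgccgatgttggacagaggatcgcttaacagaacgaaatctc
*Amacr*, chr2:61673085-61673384, plus strand: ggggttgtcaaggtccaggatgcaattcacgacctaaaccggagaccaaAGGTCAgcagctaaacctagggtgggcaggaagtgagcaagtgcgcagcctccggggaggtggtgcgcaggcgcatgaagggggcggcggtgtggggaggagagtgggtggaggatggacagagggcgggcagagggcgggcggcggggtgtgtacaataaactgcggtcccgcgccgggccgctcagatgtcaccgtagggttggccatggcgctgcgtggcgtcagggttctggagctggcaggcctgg
*Far1*, chr1:177079080-177079379, plus strand: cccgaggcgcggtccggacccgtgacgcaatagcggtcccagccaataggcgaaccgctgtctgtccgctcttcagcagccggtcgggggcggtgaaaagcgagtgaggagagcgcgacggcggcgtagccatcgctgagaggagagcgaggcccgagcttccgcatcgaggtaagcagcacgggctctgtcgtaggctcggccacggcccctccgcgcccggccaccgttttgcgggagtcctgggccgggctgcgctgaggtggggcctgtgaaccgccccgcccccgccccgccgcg
Counted from the transcript start, the 2 half-sites of *Uox* begin at -142 and -79, that of *Slc27a2* at -76 and that of *Amacr* at -201. The median GC content was 60.3% in the member windows and 51.7% in all windows.

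All 13 peroxins rose in liver from F16 to P4, by 0.20 to 0.96, where 23.7% of all genes rose. The 2 extremes were *Pex10* and *Pex13*. Across birth 10 of the 13 rose and none fell, where 15.1% of all genes rose and 20.7% fell. The exceptions were *Pex2* and *Pex26*, whose called rises were before birth, and *Pex10*. *Pex11a*, which elongates peroxisomes and is itself a PPARα target, stood apart. It read 7.68, 7.69, 7.76 and 7.72 at F16, 7.62, 7.34, 7.49 and 7.69 at F20 and 7.60, 7.49, 7.13 and 7.59 at F22, then 10.17, 10.36, 9.36 and 9.22 at P1, 8.53, 8.50, 8.83 and 8.47 at P4 and 8.50, 8.64, 8.55 and 8.76 at P90. No foetal interval held a called change, and its P1 arrays lay above all others but in 2 pairs, 2 above 10 and 2 near 9.3. It changed by 2.33 ± 0.18 (SE, adjusted p = 6.19e-10) across birth and by -1.20 ± 0.18 (SE, adjusted p = 0.000104) afterwards. *Pex11a* lies outside the rule for per-array display and was shown after its values had been seen. Its relative *Pex11g* was among the 3 members with the smallest range. *Pex11g* read 7.77, 7.73, 7.78 and 7.82 at F16, 7.76, 7.79, 7.93 and 7.88 at F20, 8.02, 8.01, 8.06 and 7.99 at F22, 8.22, 8.29, 8.21 and 8.46 at P1, 8.14, 8.25, 8.35 and 8.30 at P4 and 8.13, 7.98, 8.18 and 8.05 at P90, a slow rise to P1 of which the step across birth was 0.28 ± 0.06 (SE, adjusted p = 0.000743).

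Among the import machinery, the membrane inserters *Pex3*, *Pex16* and *Pex19* moved across birth by nearly the same amount, 0.58 ± 0.05, 0.60 ± 0.07 and 0.60 ± 0.07 (SE). Before birth they differed: *Pex3* changed by -0.17 and -0.17 in the foetal intervals, *Pex16* rose by 0.29 to F20, and *Pex19* had no call. Both foetal steps of *Pex3* passed the threshold, but missed it in 1 fit of both tissues (adjusted p = 0.175 and 0.141) and without either of 2 single arrays and without 1 array, respectively. Of the cargo carriers, *Pex5* rose by 0.39 ± 0.07 (SE, adjusted p = 6.47e-05) across birth and by 0.74 ± 0.07 (SE, adjusted p = 2.89e-09) to the adult, and *Pex7* by 0.27 ± 0.09 (SE, adjusted p = 0.016) across birth, a call lost without either of 2 single arrays. The docking proteins *Pex13* and *Pex14* rose across birth by 0.68 and 0.37, with adjusted p of 2.5e-08 and 1.7e-06. *Pex6*, the ATPase that extracts the carrier, rose before and across birth, by 0.72 and 0.82. Its second probe set gave 0.34 and 0.62 for these steps, but turned the sign of the step from P4 to P90, -0.17 (adjusted p = 0.0401) in place of 0.28 (adjusted p = 0.0212). The second probe set of *Pex19* gave 0.64 across birth in place of 0.60. *Pex10*, a ubiquitin ligase, had the smallest range of all members. Its liver arrays read 7.84, 7.95, 7.68 and 7.72 at F16, 7.90, 7.88, 7.86 and 7.80 at F20, 7.83, 7.93, 8.02 and 7.76 at F22, 7.51, 7.88, 7.91 and 7.93 at P1, 7.86, 8.08, 8.05 and 7.99 at P4 and 8.10, 8.12, 7.996 and 8.10 at P90. The groups overlap from F16 through P4, and its rise from F16 to P4, 0.20 ± 0.08 (SE, adjusted p = 0.04), was lost without any 1 of 5 single arrays.

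Of the 6 membrane proteins 5 rose from F16 to P4 (23.7% of all genes), the importers of acyl groups among them. *Abcd2*, an importer of very-long-chain acyl-CoA, read 6.01, 6.17, 6.18 and 5.999 at F16, 7.11, 7.18, 6.64 and 6.97 at F20 and 9.08, 8.69, 8.92 and 7.71 at F22, then 10.58, 11.07, 10.28 and 11.03 at P1 and 11.09, 11.10, 10.51 and 11.07 at P4. The adult arrays read 5.29, 5.36, 5.38 and 5.30, below every foetal and neonatal array. It thus gained 4.85 ± 0.22 (SE, adjusted p = 6.31e-15) from F16 to P4 and lost the gain by the adult, with -5.61 ± 0.22 (SE, adjusted p = 3.53e-16) from P4 to P90, the widest change in any single interval among the members. The related importer *Abcd3* kept its level, at 10.94 ± 0.07 (SD, n = 4) at P4 and 11.11 ± 0.05 at P90, after a rise of 1.33 ± 0.11 (SE, adjusted p = 1.57e-09) across birth. *Abcd4*, a relative of both that is known from lysosomes, where it exports vitamin B12, hardly moved. It read 7.27, 7.28, 7.37 and 7.28 at F16, 7.08, 7.21, 7.14 and 7.17 at F20, 7.26, 7.10, 7.10 and 7.15 at F22, 6.99, 7.29, 7.24 and 7.35 at P1, 7.21, 7.09, 7.14 and 7.08 at P4 and 7.44, 7.50, 7.43 and 7.40 at P90. Its change of -0.17 ± 0.06 (SE, adjusted p = 0.0282) from F16 to P4 was a called fall that was lost without any 1 of 3 single arrays, while every adult array was above the rest. *Slc27a2*, an acyl-CoA synthetase for very-long-chain fatty acids, gained 1.98 ± 0.08 (SE), *Pxmp2*, a channel of the peroxisomal membrane, 2.59 ± 0.07, and *Pxmp4* 1.15 ± 0.11 from F16 to P4.

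The 3 enzymes of ether lipid synthesis went down in liver. Of all genes, 33.8% fell there from F16 to P4 and 26.0% from P4 to P90. *Gnpat* and *Agps*, which catalyse the steps in the lumen that lead to the ether bond, and *Far1*, which supplies its fatty alcohol from the membrane, all fell from F16 to P4 and again to P90. *Far1* read 9.76, 9.74, 9.72 and 9.62 at F16, 9.46, 9.56, 9.49 and 9.51 at F20 and 8.82, 8.76, 8.87 and 9.02 at F22. After birth it read 8.07, 8.41, 8.28 and 8.18 at P1, 8.26, 8.20, 8.05 and 8.23 at P4 and 6.33, 5.85, 6.16 and 6.25 at P90. The groups from F20 to P1 do not overlap, P1 and P4 do, and the adult arrays stand far below all others. It changed by -0.63 ± 0.09 (SE, adjusted p = 3.04e-06) across birth, by -1.53 ± 0.09 (SE, adjusted p = 3.77e-13) from F16 to P4 and by -2.04 ± 0.09 (SE, adjusted p = 2.04e-15) from P4 to P90. *Agps* read 10.45, 10.31, 10.40 and 10.35 at F16, 10.26, 10.17, 10.43 and 10.32 at F20 and 10.01, 9.84, 9.92 and 10.03 at F22, then 9.66, 9.84, 9.72 and 9.87 at P1, 9.67, 9.67, 9.52 and 9.55 at P4 and 9.17, 9.05, 9.13 and 9.15 at P90. Its steps were small and in 1 direction, with -0.18 ± 0.06 (SE, adjusted p = 0.0282) across birth and -0.78 ± 0.06 (SE, adjusted p = 2.21e-10) from F16 to P4, and the call across birth was lost without any 1 of 4 single arrays. *Gnpat* changed by -0.66 ± 0.06 (SE, adjusted p = 1.72e-09) from F16 to P4 and by -0.31 to the adult, where its arrays read 8.50, 8.46, 8.44 and 8.49 against 9.42, 9.42, 9.49 and 9.47 at F16. Markers of other cells moved in the same direction. All 8 measured erythroid markers fell from F16 to P4, with a median change of -0.97, and again to P90, with a median change of -4.27, when their summed linear signal dropped from between 23980 and 27560 to between 1087 and 1213. All 15 measured cell cycle genes (16 listed) fell in both intervals, with median changes of -1.40 and -2.83. Their part in the fall of the ether lipid enzymes was not tested.

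From P4 to the adult the module split. *Dao*, *Pipox*, *Acox3* and *Pex5* rose most, *Pipox* by 1.63 and the others by the amounts given with their arrays or steps. Besides *Abcd2* and the 3 ether lipid enzymes, *Phyh* changed by -0.33, *Pex3* by -0.28 and *Pex11g* by -0.18, all called falls. The call of *Pex11g* was lost without either of 2 single arrays, and after a renewed quantile normalisation its change was -0.06 (adjusted p = 0.491). Of the matrix enzymes 8 of 13 rose and 1 fell, and of the peroxins 6 of 13 rose and 2 fell, where 29.5% of all genes rose and 26.0% fell.

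In skeletal muscle the module moved little and without a common direction. Its widest called change from F16 to P4 was smaller than the median of the matrix enzymes in liver. Between F16 and F18, 2 members rose and 6 fell (14.5% and 19.1% of all genes). From F18 to F20, 5 rose and 6 fell (14.8% and 15.9%), and from F20 to F22, 1 rose and 5 fell (6.25% and 13.9%). Across birth, 8 rose and 2 fell (9.71% and 9.02%), and from P1 to P4, 5 rose and 3 fell (19.5% and 14.6%). Without F20 replicate 4, 6 of the 11 calls from F18 to F20 remained (24.5% of all genes were then called), and without F22 replicate 5, 3 of the 6 from F20 to F22 (16.5%). With all 4 muscle arrays that lie apart left out, 4 members were called from F18 to F20, and 24 from F16 to P4 in place of 23. The 3 smallest ranges were those of *Dao*, *Agps* and *Hao1*. *Dao* read 6.06, 6.16, 6.27, 5.98 and 6.18 at F16, 6.19, 6.31, 6.15, 6.13 and 6.22 at F18, 6.22, 6.07, 6.09, 6.09 and 6.17 at F20, 6.14, 6.09, 6.13, 5.86 and 6.37 at F22, 6.10, 6.11, 6.28, 6.37 and 5.95 at P1 and 5.99, 5.87, 6.15, 6.33 and 6.21 at P4. *Hao1* read 6.24, 6.63, 6.53, 6.47 and 6.47 at F16, 6.19, 6.54, 6.32, 6.56 and 6.49 at F18, 6.34, 6.33, 6.25, 6.42 and 6.31 at F20, 6.18, 6.49, 6.45, 6.39 and 6.49 at F22, 6.33, 6.35, 6.46, 6.60 and 6.38 at P1 and 6.30, 6.33, 6.80, 6.43 and 6.28 at P4. For both, every pair of groups overlaps, and the F-test missed the threshold (adjusted p = 0.911 and 0.765). Their probe sets were dim in muscle, with mean signals at percentiles 18.7 and 22.4, where RMA understates changes. Those of *Pipox* (20.3), *Slc27a2* (20.4) and *Acox2* (24.7) were dim too. Flat values of such probe sets do not show steady expression. *Agps*, the ether lipid synthase, read 10.74, 10.77, 10.73, 10.82 and 10.66 at F16, 10.85, 10.75, 10.82, 10.80 and 10.79 at F18, 10.62, 10.68, 10.64, 10.72 and 10.79 at F20, 10.69, 10.71, 10.70, 10.67 and 10.82 at F22, 10.70, 10.62, 10.69, 10.70 and 10.73 at P1 and 10.81, 10.73, 10.81, 10.75 and 10.69 at P4. Its only called step was from F18 to F20, -0.11 ± 0.04 (SE, adjusted p = 0.0337), and was lost without any 1 of 6 single arrays.

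*Uox* had the widest range in muscle. It read 6.60, 6.64, 6.67, 6.62 and 6.43 at F16 and 6.59, 6.56, 6.57, 6.60 and 6.61 at F18, then 7.09, 6.94, 6.75, 7.63 and 7.52 at F20 and 8.07, 7.99, 8.42, 8.09 and 7.38 at F22. After birth it read 7.70, 7.41, 7.90, 7.80 and 7.43 at P1 and 6.83, 6.79, 7.15, 7.19 and 7.66 at P4. All F22 arrays lie above all F16 and F18 arrays, and F20 is split, with replicates 4 and 5 high. It rose by 0.60 ± 0.17 (SE, adjusted p = 0.00643) to F20 and by 0.80 ± 0.17 (SE, adjusted p = 0.000944) to F22, and then changed by -0.53 ± 0.17 (SE, adjusted p = 0.0144) from P1 to P4. On the F20 arrays the mean of the 12 hepatocyte markers was 7.01, 6.93, 6.96, 7.89 and 8.32, so that replicates 4 and 5 were high in both. At F16 the same markers stood between 6.74 and 8.26 while *Uox* stayed between 6.43 and 6.67. In liver, too, *Uox* was low at F16, with 6.97 to 7.40 against 9.08 to 9.85 at F20. The F16 arrays thus cannot show whether *Uox* follows the markers in muscle. At F22 the array lowest in *Uox*, replicate 5, had a marker mean of 7.40 in a group from 7.26 to 8.16. With the 4 arrays that lie apart left out, the change of *Uox* from F18 to F20 was 0.34 (adjusted p = 0.0945). The part of the hepatocyte markers in the muscle values of *Uox* was not tested.

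**Figure D4:**
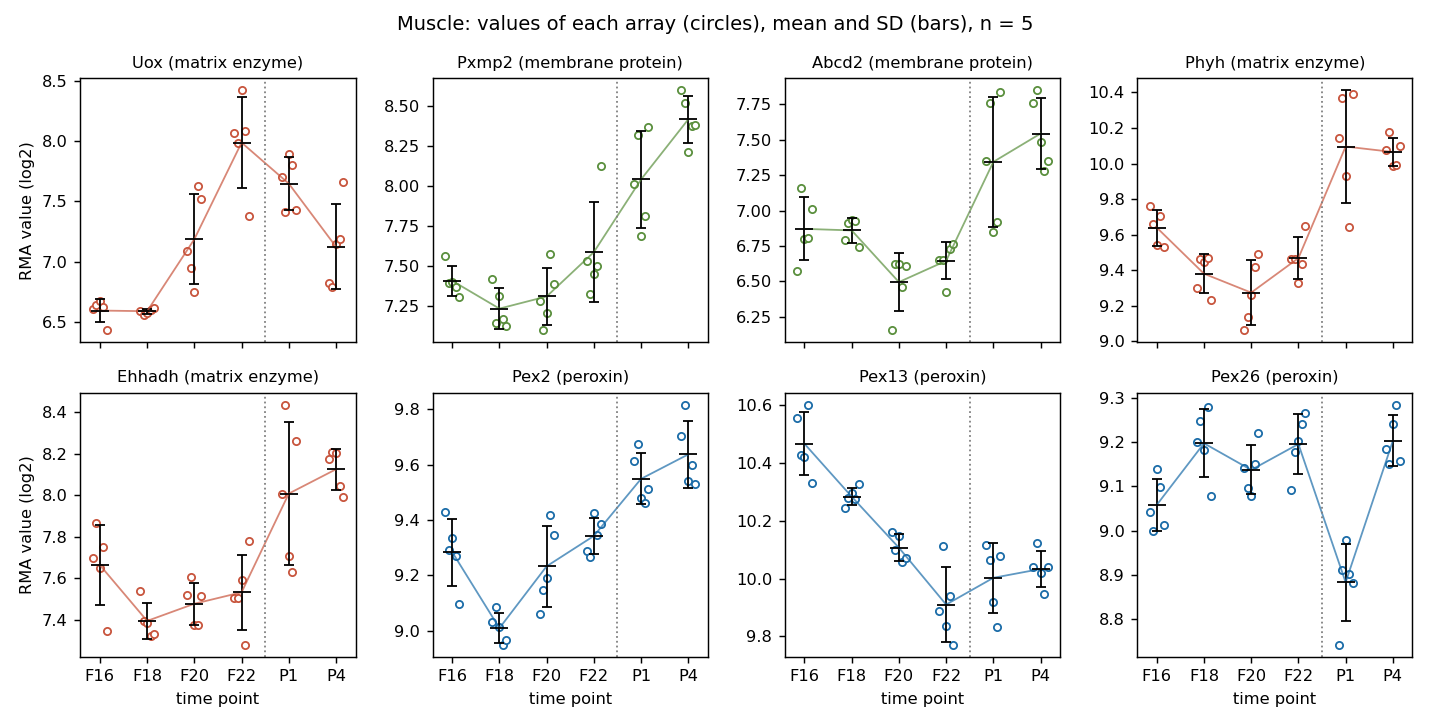
RMA log2 value (vertical axis, a separate and narrower scale in each panel) of 8 members on every muscle array at each time point; circles are arrays, black bars the mean and SD (n = 5), lines join the means, and the dotted line marks birth. *Uox* peaks at F22, *Pxmp2*, *Abcd2*, *Phyh* and *Ehhadh* are higher after birth with wide spread at P1, *Pex13* falls before birth, and *Pex26* dips at P1.

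Across birth in muscle 8 members rose: *Abcd2*, *Phyh*, *Ehhadh*, *Pxmp2*, *Pex11a*, *Pex3*, *Acox3* and *Pex2*. The first 5 rose most, and the calls of *Pex3* and *Pex2* were lost without any 1 of 3 and 5 single arrays. *Pxmp2*, the membrane channel, read 7.56, 7.40, 7.40, 7.37 and 7.31 at F16, 7.42, 7.15, 7.32, 7.17 and 7.12 at F18, 7.28, 7.10, 7.20, 7.57 and 7.39 at F20 and 7.53, 7.33, 7.45, 7.50 and 8.12 at F22, then 8.01, 8.32, 7.69, 7.82 and 8.37 at P1 and 8.60, 8.52, 8.21, 8.37 and 8.38 at P4. Every P4 array lay above every foetal array, and its change from F16 to P4, 1.01 ± 0.13 (SE, adjusted p = 4.82e-08), was the highest of any member in muscle. *Abcd2*, the acyl-CoA importer, read 6.58, 7.16, 6.80, 6.81 and 7.01 at F16, 6.79, 6.91, 6.93, 6.93 and 6.74 at F18, 6.16, 6.63, 6.63, 6.46 and 6.61 at F20 and 6.65, 6.65, 6.43, 6.73 and 6.77 at F22. It then read 7.35, 7.76, 6.85, 6.92 and 7.84 at P1 and 7.76, 7.85, 7.48, 7.28 and 7.35 at P4. The P1 arrays run from within the foetal range almost to the top of the P4 range, and the change across birth was 0.70 ± 0.15 (SE, adjusted p = 0.00135), the highest of any member there. *Phyh*, of α-oxidation, read 9.76, 9.66, 9.54, 9.71 and 9.53 at F16, 9.30, 9.46, 9.45, 9.47 and 9.23 at F18, 9.06, 9.14, 9.26, 9.42 and 9.49 at F20 and 9.46, 9.46, 9.33, 9.44 and 9.65 at F22, then 10.14, 10.37, 9.93, 9.64 and 10.39 at P1 and 10.07, 10.18, 9.99, 9.99 and 10.10 at P4. Only 1 P1 array overlapped the F22 group, and the change across birth was 0.63 ± 0.10 (SE, adjusted p = 5.96e-05). *Ehhadh*, of β-oxidation, read 7.70, 7.87, 7.65, 7.75 and 7.35 at F16, 7.54, 7.39, 7.38, 7.32 and 7.33 at F18, 7.52, 7.61, 7.38, 7.38 and 7.52 at F20 and 7.51, 7.51, 7.59, 7.28 and 7.78 at F22, then 8.01, 8.43, 7.71, 7.63 and 8.26 at P1 and 8.18, 8.21, 8.20, 8.04 and 7.99 at P4. The same P1 arrays, replicates 2 and 5, were highest in *Abcd2*, *Phyh*, *Ehhadh*, *Pxmp2* and *Pex11a*, and replicates 3 and 4 lowest. *Ehhadh* changed by 0.47 ± 0.11 (SE, adjusted p = 0.00352) and *Pex11a* by 0.50 ± 0.10 (SE, adjusted p = 0.000307) across birth.

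The adipocyte markers followed the same arrays. Their mean over 11 genes was 8.88, 9.28, 8.46, 7.86 and 9.47 on the P1 muscle arrays 1 to 5, the order in which *Phyh* also stood. Of the 11 measured (12 listed), 9 rose from F22 to P1, by a median over the list of 0.86, and their summed linear signal went from between 3081 and 4518 to between 4329 and 12600. At P4 the mean lay between 8.84 and 9.01 and no longer differed so widely. The part of these markers in the muscle changes of the members was not tested.

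Several peroxins fell in muscle before birth. *Pex13*, a docking protein, read 10.55, 10.43, 10.42, 10.60 and 10.33 at F16, 10.24, 10.28, 10.29, 10.28 and 10.33 at F18, 10.16, 10.10, 10.15, 10.06 and 10.07 at F20 and 9.89, 10.11, 9.84, 9.94 and 9.77 at F22, then 10.12, 10.07, 9.92, 9.83 and 10.08 at P1 and 10.04, 10.12, 10.02, 9.95 and 10.04 at P4. Each foetal group lay lower than the one before it, with little overlap, and its change from F16 to P4 was -0.43 ± 0.06 (SE, adjusted p = 2.76e-07). *Pex2*, a ubiquitin ligase, dipped and then rose. It read 9.43, 9.29, 9.33, 9.27 and 9.10 at F16, 9.03, 9.09, 9.01, 8.95 and 8.97 at F18, 9.06, 9.15, 9.19, 9.42 and 9.35 at F20 and 9.29, 9.27, 9.42, 9.35 and 9.39 at F22, then 9.61, 9.68, 9.48, 9.46 and 9.51 at P1 and 9.70, 9.82, 9.54, 9.60 and 9.53 at P4. Its F18 mean is the lowest and its P4 arrays all lie above F16, with -0.28 ± 0.07 (SE, adjusted p = 0.00194) to F18 and 0.35 ± 0.07 (SE, adjusted p = 3.52e-05) from F16 to P4. *Pxmp4*, a membrane protein, read 9.75, 9.60, 9.59, 9.29 and 9.49 at F16, 9.46, 9.25, 9.56, 9.43 and 9.48 at F18, 9.71, 9.60, 9.72, 10.09 and 10.03 at F20 and 9.87, 9.66, 9.89, 9.70 and 9.77 at F22, then 9.87, 9.93, 9.91, 9.72 and 9.83 at P1 and 10.11, 10.19, 9.93, 10.10 and 10.16 at P4. Its F20 replicates 4 and 5, the arrays of that group high in hepatocyte markers, stood above the rest of the group. *Pex2* was split at F20 in the same way. With the 4 arrays that lie apart left out, its change from F18 to F20 was 0.12 (adjusted p = 0.182). *Phyh* and *Pxmp2* were also highest on these arrays within their F20 groups. The part of the hepatocyte markers in the values of these members was not tested. *Pxmp4* rose by 0.55 ± 0.09 (SE, adjusted p = 1.82e-06) from F16 to P4.

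Across birth in muscle the 2 called falls were *Pex26* and *Abcd4*. *Pex26*, which anchors *Pex6* at the membrane, read 9.04, 8.999, 9.14, 9.10 and 9.01 at F16, 9.20, 9.25, 9.18, 9.28 and 9.08 at F18, 9.14, 9.10, 9.08, 9.15 and 9.22 at F20 and 9.09, 9.18, 9.20, 9.24 and 9.27 at F22, then 8.74, 8.91, 8.98, 8.90 and 8.88 at P1 and 9.18, 9.15, 9.24, 9.28 and 9.16 at P4. The P1 arrays lie below all others, a dip of -0.31 ± 0.05 (SE, adjusted p = 2.19e-05) that was made good by P4, with 0.32 ± 0.05 (SE, adjusted p = 6.52e-06). *Abcd4* read 8.48, 8.53, 8.39, 8.62 and 8.70 at F16, 8.37, 8.37, 8.49, 8.53 and 8.32 at F18, 8.33, 8.33, 8.26, 8.28 and 8.12 at F20 and 8.40, 8.51, 8.40, 8.42 and 8.35 at F22, then 8.27, 8.20, 8.25, 8.29 and 8.15 at P1 and 8.17, 8.11, 8.17, 8.21 and 7.91 at P4. Its decline over the whole span was -0.43 ± 0.06 (SE, adjusted p = 3.03e-07), and the call across birth, -0.18, was lost without any 1 of 6 single arrays. 

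The other called falls in muscle from F16 to P4 were moderate. Among the enzymes, *Hacl1* changed by -0.55, *Hsd17b4* by -0.37 and *Gnpat* by -0.40. Among the peroxins, *Pex10* changed by -0.46, *Pex3* by -0.41, *Pex6* by -0.25, *Pex5* by -0.20 and *Pex11g* by -0.18. The second probe set of *Pex6* gave -0.05 (adjusted p = 0.447), and the call of *Pex11g* was lost without any 1 of 5 single arrays. *Slc27a2* changed by -0.24, a call lost without any 1 of 22. Besides the members described, *Mlycd* rose by 0.47, *Pex16* by 0.36, *Amacr* by 0.34 and *Cat* by 0.23. Marker lists moved over this span as well. All 14 measured muscle fibre markers rose, with a median change of 2.12. Of 10 fibroblast markers 9 rose (median over the list 1.53), of 11 measured adipocyte markers 10 (1.52), of 8 measured erythroid markers 8 (1.90), and of 4 measured keratinocyte markers 4 (2.77). All 15 measured cell cycle genes fell, with a median change of -0.62. Their part in the muscle changes of the members was not tested.

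The tissues were then compared by the difference between their changes from F16 to P4, in 1 fit of all 54 arrays. It was called for 35 of 35 members, where 57.5% of all genes were called. In 32 the liver changed more in the positive direction (25.2% of all genes) and in 3, the ether lipid enzymes, muscle did (32.3%). The widest difference was that of *Hao1*, 5.55 ± 0.27 (SE, adjusted p = 1.34e-22), followed by *Abcd2* 4.18, *Uox* 3.66, *Hacl1* 3.42 and *Ehhadh* 3.25. Their mean signals in muscle were at percentiles 22.4, 31.5, 35.4, 56 and 44.3, in that order. For *Hacl1* the tissues moved in opposite directions, both past the threshold. The same holds for 8 others that rose in liver and fell in muscle: *Pex3*, *Pex5*, *Pex6*, *Pex10*, *Pex11g*, *Pex13*, *Hsd17b4* and *Slc27a2*. Some of these calls were fragile. The muscle falls of *Slc27a2* and *Pex11g* were lost without any 1 of 22 and 5 single arrays. The liver rise of *Pex10* was lost without any 1 of 5. The second probe set of *Pex6* gave -0.05 (adjusted p = 0.447) in muscle. Another 12 members rose in both tissues, and 10 rose in liver with no call in muscle. The share of all genes with each pair of calls was not counted, so the pair counts are descriptions. In muscle alone, 27.4% of all genes rose and 34.3% fell. *Far1* fell more in liver, with a difference of -1.41 ± 0.10 (SE, adjusted p = 9.66e-17), as did *Agps*, -0.79 ± 0.07 (SE, adjusted p = 1.01e-13), and *Gnpat*, -0.26 ± 0.08 (SE, adjusted p = 0.00404). The calls of *Pex2* and *Pex26*, 0.25 and 0.18, were lost without any 1 of 6 and 10 single arrays.

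**Figure D5:**
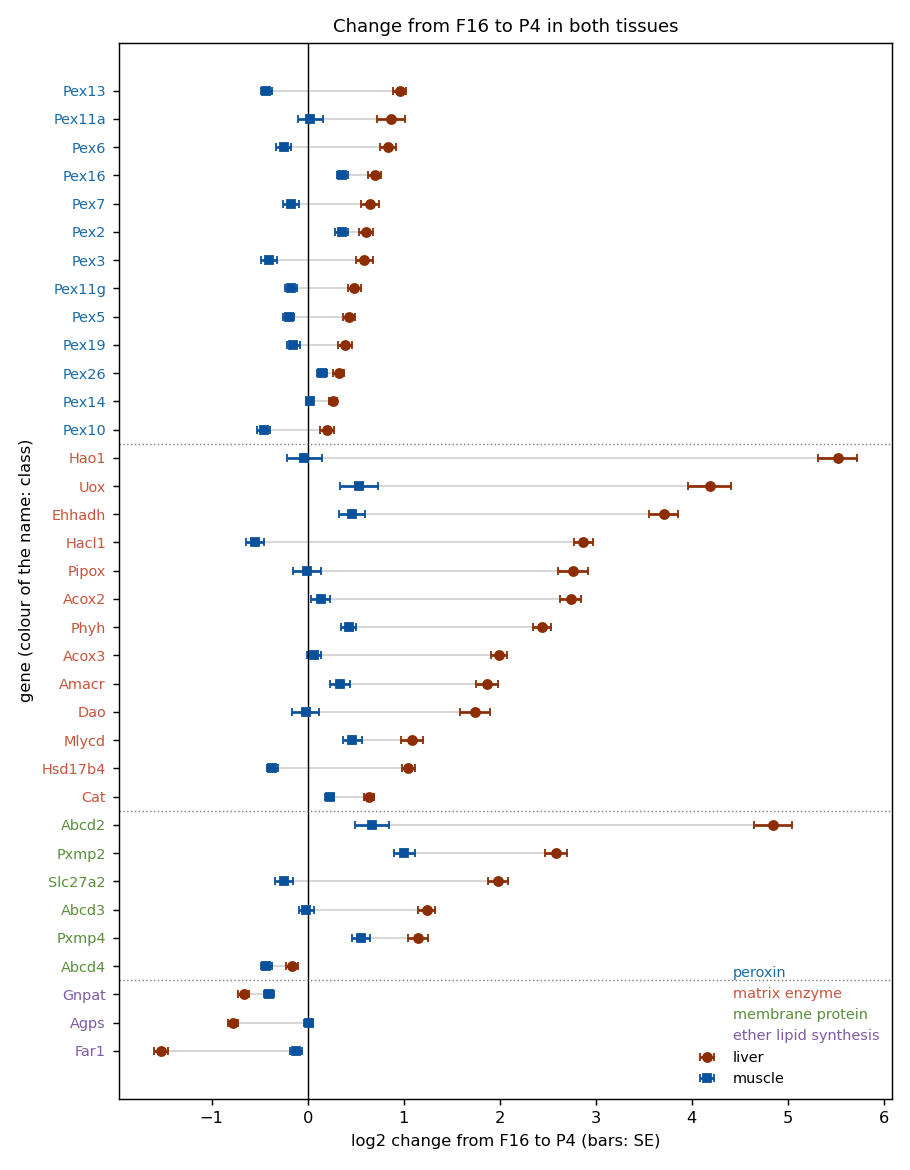
Log2 change from F16 to P4 (horizontal axis) of each member in liver (circles) and muscle (squares), by class (name colours and dotted lines), with standard errors from the fit of all 54 arrays. The liver lies to the right of muscle for 32 members, most widely for *Hao1*, and to the left for *Gnpat*, *Agps* and *Far1*.

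Genes of the same organelle outside the module are given next. Of 27 other peroxisomal genes measured (38 listed), 20 rose and 3 fell in liver from F16 to P4 (23.7% and 33.8% of all genes), with a median of 1.03 (all genes -0.02). The widest rises were those of *Agxt*, which detoxifies glyoxylate (4.64), *Baat*, which conjugates bile acids (3.38), *Ech1* (3.03) and *Pecr* (2.58) of fatty acid metabolism, the acyl-CoA synthetase *Acsl1* (2.17) and the thiolase *Acaa1b* (2.12). Muscle held 8 rises and 9 falls among them (27.4% and 34.3% of all genes), with a median of -0.07 (all genes -0.04). There *Acsl1* rose by 2.62, *Crat*, carnitine acetyltransferase, by 1.25, *Ech1* by 1.00, *Ide* by 0.72 and *Scp2* by 0.49, and *Gstk1* changed by -0.88.

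Most genes of a list of PPARα, its partners and its targets outside the peroxisome rose in both tissues. In liver 22 of 23 measured (25 listed) rose from F16 to P4 and 0 fell (23.7% and 33.8% of all genes), with a median of 1.58 (all genes -0.02). The widest were *Cyp4a1*, a fatty acid hydroxylase (5.74), *Cpt1a*, which admits fatty acids to mitochondria (4.36), *Pdk4* (4.09), *Fabp1* (3.97), *Creb3l3* (2.52) and *Acot1* (2.34). Across birth 21 rose and 0 fell (15.1% and 20.7% of all genes), with a median of 0.94, and from P1 to P4, 0 rose and 10 fell (4.87% and 5.97%). In muscle 18 of 23 rose over the whole span and 0 fell (27.4% and 34.3% of all genes), with a median of 0.40 (all genes -0.04), led by *Pdk4* (3.17), *Ucp3* (1.86), *Cpt1a* (1.64), *Ppara* (1.52), *Acadl* (1.23) and *Ppargc1a* (1.00). *Ppara* itself, named after its values were seen, rose in liver by 2.12 from F16 to P4, mostly before birth, with 1.09 to F20, 0.92 to F22 and 0.23 across birth. It changed by -1.29 from P4 to P90. Of 3 measured genes that divide both peroxisomes and mitochondria (4 listed), *Dnm1l*, the dynamin that severs the membrane, changed by -0.81 in liver and -0.48 in muscle from F16 to P4, *Fis1* by -0.50 in liver, all called, and *Gdap1* had no call over that span.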

How the data were processed

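RNA of 54 samples was hybridised to 1 array each. The authors summarised probe intensities to log2 values by RMA, which corrects background, quantile normalises and summarises the probes of a set, in Affymetrix Expression Console (version not stated in these sources), and deposited 1 table of log2 values. RMA pulls dim probe sets together, so that fold changes of dim genes are understated.

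The number of arrays limits the precision. Probe sets were named from the platform annotation: 15310 of 29214 carry 1 symbol, 323 carry several and 13581 are unnamed here. A gene with several probe sets was represented by the one with the highest mean over all arrays. The members and all gene lists were chosen with earlier results of these data known. Each tissue was fitted on its own over 6 time points with limma 3.58.1 in R 4.3.3, without covariates, and the difference between tissues in 1 fit of 12 groups. P-values were adjusted (Benjamini-Hochberg) over all 15310 probe sets. The fit was tested on simulated data. Values of every array are printed for the 8 members with the largest and the 3 with the smallest range of group means per tissue, and for the 2 highest and 2 lowest called changes across birth. Up to 6 genes per further list and tissue are named by largest called change from F16 to P4. Class medians were compared without a test. Alternatives covered the threshold, dim probe sets, normalisation, prior, samples, weights, replicate numbers, probe sets and single arrays. Promoter windows came from RefSeq (GRCr8), not from the array's own annotation.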

Additional observations from a re-analysis of the deposited data

Results flagged for a closer look

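Of 150 groups of arrays examined over the members shown array by array, 8 held an array whose gap to its nearest neighbour was large against the range of its group, by Dixon's criterion. Chance alone flags about 1 group in 20. In liver, *Ehhadh* at P1 read 12.19 on replicate 1 and 13.05 to 13.16 on the others, and *Pex10* at P1 read 7.51 on the same array and 7.88 to 7.93 on the others. *Abcd2* at P4 read 10.51 on replicate 3 against 11.07 to 11.10, *Hacl1* at F22 read 8.36 on replicate 4 against 8.98 to 9.06, and *Abcd4* at F16 read 7.37 on replicate 3 against 7.27 to 7.28. In muscle, F22 replicate 5 was high in *Pxmp2*, 8.12 against 7.33 to 7.53, and in *Agps*, 10.82 against 10.67 to 10.71. *Uox* at F16 read 6.43 on replicate 5 and 6.60 to 6.67 on the others.

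The change from F16 to P4 differed between the tissues for all 35 members, by limma's test of the difference itself. Written as liver minus muscle, the difference was widest for matrix enzymes and transporters. It was 5.55 for *Hao1*, 3.66 for *Uox*, 2.77 for *Pipox*, 1.76 for *Dao* and 0.40 for *Cat* among the oxidases and catalase. In β-oxidation it was 3.25 for *Ehhadh*, 2.60 for *Acox2*, 1.92 for *Acox3*, 1.53 for *Amacr* and 1.42 for *Hsd17b4*, and 0.62 for *Mlycd*. In α-oxidation it was 3.42 for *Hacl1* and 2.02 for *Phyh*. Among the membrane proteins it was 4.18 for *Abcd2*, 2.22 for *Slc27a2*, 1.58 for *Pxmp2*, 1.25 for *Abcd3*, 0.60 for *Pxmp4* and 0.26 for *Abcd4*. For the peroxins it was 1.39 for *Pex13*, 1.09 for *Pex6*, 1.00 for *Pex3*, 0.84 for *Pex11a*, 0.66 for *Pex11g*, 0.66 for *Pex10*, 0.63 for *Pex5*, 0.82 for *Pex7*, 0.53 for *Pex19*, 0.34 for *Pex16*, 0.25 for *Pex2*, 0.24 for *Pex14* and 0.18 for *Pex26*. The ether lipid enzymes ran the other way, with -1.41 for *Far1*, -0.79 for *Agps* and -0.26 for *Gnpat*.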

How the results depend on the processing

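Of 240 single member changes past the threshold, 0 changed sign in 13 other settings or without any 1 of 54 arrays, 196 kept their call without any 1 array, and 44 lost it without at least 1. Among other settings, centring each array on its median ended most calls (14), and the replicate block 3. Counts of called members moved by over 1.5 times as follows. At an unadjusted p of 0.05, 18 were called in liver from P1 to P4 and 14 in muscle from F16 to F18. Renewed quantile normalisation gave 2 in muscle from F20 to F22 and array weights 10, 1 fit of both tissues gave 14 in liver from P1 to P4, and without the 4 muscle arrays that lie apart 4 were called from F18 to F20. With probe sets above the median signal only, 18 members remained in muscle, and with p-values adjusted over these probe sets alone 18 passed its F-test, 18 the test between tissues, 5 changed across birth, 5 from P1 to P4 and 13 from F16 to P4. The median change of matrix enzymes minus that of peroxins in liver became 2.052 (F16 to P4) and 0.2607 (P4 to P90) with bright probe sets only, 0.3584 (P4 to P90) with the mean of a gene's probe sets, and 1.402 (F16 to P4) with *Gnpat* and *Agps* counted as matrix enzymes, which gave 0.2449 in muscle. Near 0 in muscle across birth (-0.02), it turned positive with bright probe sets (0.08584), array weights (0.008576) and without the 4 arrays (0.005503). Leaving out 1 array in turn, calls ranged from 7 to 15 in liver from P1 to P4 (15 without P1 replicate 1, also a planned setting of its own), in muscle from 6 to 12 (F18 to F20) and from 3 to 7 (F20 to F22), and the class difference from 1.842 to 1.896 (F16 to P4), 0.742 to 1.088 (F22 to P1) and 0.2095 to 0.3623 (P4 to P90) in liver, and from 0.2515 to 0.3922 (F16 to P4) and -0.09728 to 0.02543 (F22 to P1) in muscle. Arrays with the same replicate number did not deviate together (median correlation -0.006 in liver and -0.008 in muscle, over 0.1 in 6 of 60 and 16 of 75 pairs). With the number as a block, 35, 30 and 35 members were called in liver for the F-test, F22 to P1 and F16 to P4, and 29, 10 and 22 in muscle. The cause of these shifts was not tested.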

Other observations

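Beside the peroxisomal genes, lists of blood and vessel cells moved in the liver from F16 to P4. All 9 granulocyte markers rose, with a median change of 3.21, 10 of 10 measured macrophage markers rose, with a median of 1.73, and 8 of 8 endothelial markers, with a median of 0.67. Of 10 fibroblast markers 7 fell and 1 rose, with a median of -0.45. Of 11 measured adipocyte markers 8 rose in liver (0.59), *Pck1* most (5.96). The others, *Adipoq* (0.11), *Plin1* (-0.01) and *Ucp1* (-0.13), had no call there. Of the 12 hepatocyte markers 11 rose and 1 fell (0.75). In muscle, 1 hepatocyte marker rose and 1 fell over the same span. Muscle also gained granulocyte markers (8 of 9 rose, median 2.05), macrophage markers (8 of 10 measured, 1.21) and endothelial markers (6 of 8, 0.52). No explanation was tested.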
